A study of Mus musculus with 7 samples.

Results

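The genes examined belong to the endoplasmic reticulum (ER) folding machinery and the unfolded protein response: Hspa5, Hsp90b1, Dnajb9, Sdf2l1, Calr, Canx, Pdia3, Pdia4, Pdia6 and Xbp1. They were found by name, and each matched 1 row of a table of 55357 genes, so 10 of 10 were found and all 10 passed the filter on low values. The data are poly(A)-selected RNA-seq libraries of live CD45+ CD8+ T cells sorted on day 14 from subcutaneous MCA205 tumours, a transplantable mouse fibrosarcoma, with at least 30000 cells per condition. The ENT1KO group (4 libraries, replicates 11, 12, 14 and 15) came from Slc29a1-/- recipients, which lack the nucleoside transporter ENT1, and the WT group (3 libraries, replicates 1, 2 and 3) from C57Bl/6 recipients. Both groups received the same tumour cells, so the deletion was in the host and not in the tumour, and neither the age of the mice nor the number of animals per library is given in the sources used here. P-values therefore measure the spread between these libraries, which may be technical.

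The ER lumen is where secreted and membrane proteins fold. The chaperone BiP (Hspa5) binds unfolded chains and holds the stress sensors IRE1 (Ern1), PERK (Eif2ak3) and ATF6 inactive, and when unfolded protein builds up these sensors raise chaperones, disulfide isomerases and degradation factors through the transcription factors XBP1, ATF6 and ATF4. The load is high in cells that secrete heavily, such as plasma cells and collagen-producing fibroblasts. In T cells the same chaperones serve the T cell receptor, class I molecules and cytotoxic granule proteins.

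Depth was estimated at 18624318 to 19660792 gene reads per library by taking the smallest normalized count of each library as 1 read, a step that a separate check of the values did not accept for WT replicates 1 and 3. Levels are given in TPM, a transcript abundance corrected for transcript length and for library size. Differences (ENT1KO less WT) are in log2(TPM + 1), so for low genes they are smaller than the true change. A gene is said to have risen or fallen where the limma-trend test on that scale, with Benjamini-Hochberg adjustment over the 13798 genes tested, gave an adjusted p under 0.05. Slc29a1 itself stood at 13.2 to 17.6 TPM in ENT1KO and 49.7 to 58.9 TPM in WT (log2 difference -1.78, limma adjusted p = 0.00121). T cell genes were present in every library, and so were genes of cells that a CD45+ CD8+ gate should remove. The summed level of 15 CD8 T cell genes ran from 9342 to 11480.1 TPM in ENT1KO and from 2924 to 7063 TPM in WT. That of 18 genes of matrix-secreting cells (fibroblasts and fibrosarcoma cells) ran from 11.1 to 912 TPM in ENT1KO and from 4255 to 8020.3 TPM in WT, and 5 of the 18 were at 0 in at least 1 library. That of 14 macrophage and monocyte genes ran from 117 to 1345 TPM in ENT1KO and from 3510 to 5265 TPM in WT. In bulk libraries such as these, fewer cells of a type and less RNA per cell cannot be told apart.

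Several of the members carry a shared control element, shown here because 5 of the 6 members that fell hold an exact copy of it. The element was picked by that outcome, so the overlap is not a test, and a role of the element was not tested. Of the 11 other tested genes with an exact copy, 2 fell and 2 rose. The ER stress response element (ERSE), which ATF6 binds together with the CCAAT-box factor NF-Y, reads CCAAT, any 9 bases, CCACG. It was searched on both strands of RefSeq promoter windows (GRCm38.p6, 250 bases before to 50 after each gene start), in which all 10 members had 1 window. By construction it contains a CCAAT box and a CCACG. Exact matches were found in the windows of 5 of 10 members, against 39 of 32851 windows (0.119%). The members were chosen as genes of the response that the element is named for. Neither this contrast nor the one below for a looser form is therefore a test. They begin 65 bases before the start of Hspa5 (window shown, chr2:34772005-34772063, plus strand), 162 before Calr (chr8:84847055-84847113, minus), 145 before Canx (chr11:50325780-50325838, minus), 212 and 107 before Hsp90b1 (chr10:86705618-86705676 and chr10:86705513-86705571, minus) and 98 before Pdia6 (chr12:17266471-17266529, plus). Each sequence runs 5′ to 3′ along its gene, with the element in capitals and 20 flanking bases on each side. The element of Calr and the second of Hsp90b1 lie on the opposite strand and appear as the reverse complement.
Hspa5: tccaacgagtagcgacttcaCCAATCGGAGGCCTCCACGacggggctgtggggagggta
Calr: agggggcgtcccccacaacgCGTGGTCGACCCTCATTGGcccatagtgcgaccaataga
Canx: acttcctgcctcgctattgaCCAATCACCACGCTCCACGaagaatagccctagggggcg
Hsp90b1, first: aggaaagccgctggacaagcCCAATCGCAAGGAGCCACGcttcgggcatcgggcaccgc
Hsp90b1, second: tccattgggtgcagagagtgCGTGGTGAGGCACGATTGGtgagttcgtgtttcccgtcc
Pdia6: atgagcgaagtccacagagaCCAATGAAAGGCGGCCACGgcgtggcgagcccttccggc

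With at most 1 mismatch in the last 5 letters, a form found in 328 of the 32851 windows (0.998%), 7 of 10 members had a match. Those added were Pdia4, 108 bases before its start (chr6:47813582-47813640, minus strand, element reversed), and Pdia3, 29 bases before its start (chr2:121413853-121413901, plus strand, with fewer flanking bases because the gene start is near).
Pdia4: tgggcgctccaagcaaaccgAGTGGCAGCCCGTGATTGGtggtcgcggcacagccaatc
Pdia3: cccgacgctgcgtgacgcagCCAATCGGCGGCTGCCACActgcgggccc
A CCAAT box alone was present in 9 of 10 member windows and in 37.4% of all windows, and Xbp1 was the member without one. Neither ERSE-II (ATTGG, any 1 base, CCACG) nor the XBP1-type element TGACGTGG occurred in a member window, and they occurred in 0.0365% and 0.676% of all windows. A match is a description of these letters and not of binding.

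**Figure D1:**
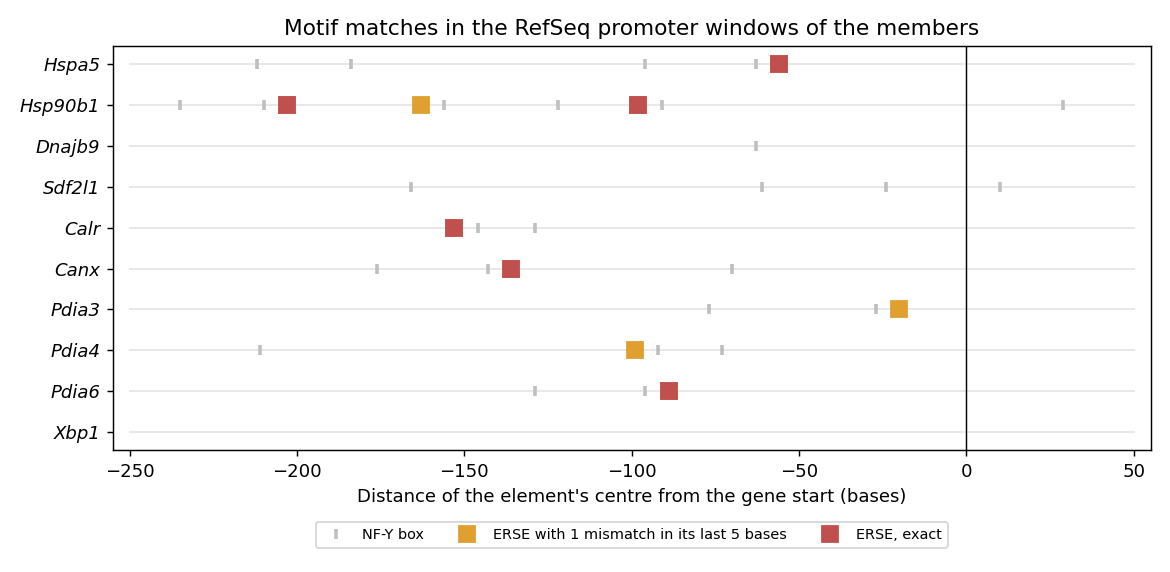
Position of ERSE matches and CCAAT (NF-Y) boxes in the promoter windows of the 10 members, as the distance of each element's centre from the gene start in bases. Exact ERSE matches (red) are in 5 windows and matches with 1 mismatch (orange) in Hsp90b1, Pdia3 and Pdia4, while Dnajb9, Sdf2l1 and Xbp1 have neither.

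In ENT1KO 6 of the 10 members fell and none rose. The background was high, since 23.1% of all genes tested fell and 27.5% rose. The median log2 difference of the members was -0.42, against 0.15 for all genes tested. Hspa5, Calr, Pdia4 and Pdia6, 4 of the 10, had ranges in ENT1KO wholly below those in WT, against 24.9% of all genes tested. Together the members made up 2603 ± 326 TPM in ENT1KO (SD, n = 4) and 3481 ± 319.8 TPM in WT (SD, n = 3), 74.8% of the WT level. The ranges of that sum did not overlap, and its log2 difference was -0.42 (exact two-sided permutation p = 0.0571 over 35 splits, of which the smallest possible is 0.0286).

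The Hsp70 and Hsp90 class chaperones proper, Hspa5 and Hsp90b1, both fell. Hspa5 (chromosome 2, 34661982 to 34667559, GRCm39, as are the gene positions that follow), encoding BiP, the master chaperone of the lumen, was at 605, 601, 723 and 623 TPM in ENT1KO (always in the order of replicates 11, 12, 14, 15) against 872, 965 and 775 TPM in WT (in the order 1, 2, 3). Every ENT1KO library lay below every WT library, and replicate 14 was the highest of the ENT1KO group. Mean levels of 638 ± 57.6 TPM in ENT1KO (SD, n = 4) and 871 ± 94.8 TPM in WT (SD, n = 3) correspond to a log2 difference of -0.45 (standard error, SE, 0.12, limma adjusted p = 0.0139). Hsp90b1 (chromosome 10, 86526073 to 86541373), encoding GRP94, which folds integrins and Toll-like receptors, was at 386, 399, 510.4 and 374 TPM in ENT1KO and at 588, 621 and 492 TPM in WT. Here replicate 14 reached into the WT range, above WT replicate 3. The log2 difference was -0.45 (SE 0.14, limma adjusted p = 0.0300).

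The 2 lectin chaperones, which hold newly made glycoproteins until they are folded, fell by similar amounts. Calr (chromosome 8, 85568479 to 85573563), encoding calreticulin of the lumen, was at 503, 532, 691 and 529 TPM in ENT1KO and at 722, 868 and 758 TPM in WT. The groups did not overlap, and the log2 difference was -0.48 (SE 0.14, limma adjusted p = 0.0194). Canx (chromosome 11, 50184788 to 50216500), encoding the membrane-bound relative calnexin, was at 208, 211, 266.8 and 189.7 TPM in ENT1KO and at 279.9, 309 and 266.7 TPM in WT. ENT1KO replicate 14 and WT replicate 3 were level, and the other ENT1KO libraries lay below all WT libraries. Its log2 difference was -0.39 (SE 0.13, limma adjusted p = 0.0399).

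Among the protein disulfide isomerases, which make and rearrange disulfide bonds, Pdia6 showed the largest difference of the 10 members. Pdia6 (chromosome 12, 17316546 to 17334771), encoding an isomerase that works with BiP, was at 98.3, 101, 134 and 92.4 TPM in ENT1KO and at 171, 212 and 158 TPM in WT. No ENT1KO library reached the WT range, its mean was 106 ± 18.6 TPM in ENT1KO (SD, n = 4) against 180.2 ± 28.2 TPM in WT (SD, n = 3), and the log2 difference was -0.76 (SE 0.16, limma adjusted p = 0.00611). Pdia4 (chromosome 6, 47773075 to 47790364), encoding ERp72, was at 70.6, 82.8, 107 and 77.3 TPM in ENT1KO and at 116.5, 130.1 and 111 TPM in WT. Its groups did not overlap either, although replicate 14 came close (log2 difference -0.51, SE 0.15, limma adjusted p = 0.0228). Pdia3 (chromosome 2, 121244256 to 121269168), encoding ERp57, the partner of the lectin chaperones and part of the class I loading complex, was at 361, 398, 463 and 348 TPM in ENT1KO and at 491, 539 and 434 TPM in WT. Replicate 14 exceeded WT replicate 3, and the log2 difference of -0.32 (SE 0.13) did not pass (limma adjusted p = 0.0752).

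Xbp1 and the 2 small co-factors did not pass. Xbp1 (chromosome 11, 5470659 to 5475893), the transcription factor whose mRNA IRE1 splices on ER stress, was at 90.8, 84.1, 98.1 and 70.5 TPM in ENT1KO and at 92.3, 98.4 and 104 TPM in WT. The groups overlapped, with a log2 difference of -0.20 (SE 0.13, limma adjusted p = 0.213), and a value per gene does not separate the spliced from the unspliced form. Sdf2l1 (chromosome 16, 16948002 to 16950247), a lumenal component of BiP complexes, was at 37.9, 43.2, 55.9 and 45.2 TPM in ENT1KO and at 50.4, 49.4 and 56.0 TPM in WT (log2 difference -0.20, SE 0.14, limma adjusted p = 0.251). Dnajb9 (chromosome 12, 44252342 to 44257109), encoding ERdj4, a J-protein that couples BiP to IRE1 and is a well-known XBP1 target, was the only member with a positive difference. It was at 58.9, 39.4, 40.3 and 62.2 TPM in ENT1KO and at 40.5, 34.0 and 38.4 TPM in WT. All WT libraries lay below ENT1KO replicates 11 and 15, while replicates 12 and 14 were inside the WT range (log2 difference 0.38, SE 0.18, limma adjusted p = 0.114).

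**Figure D2:**
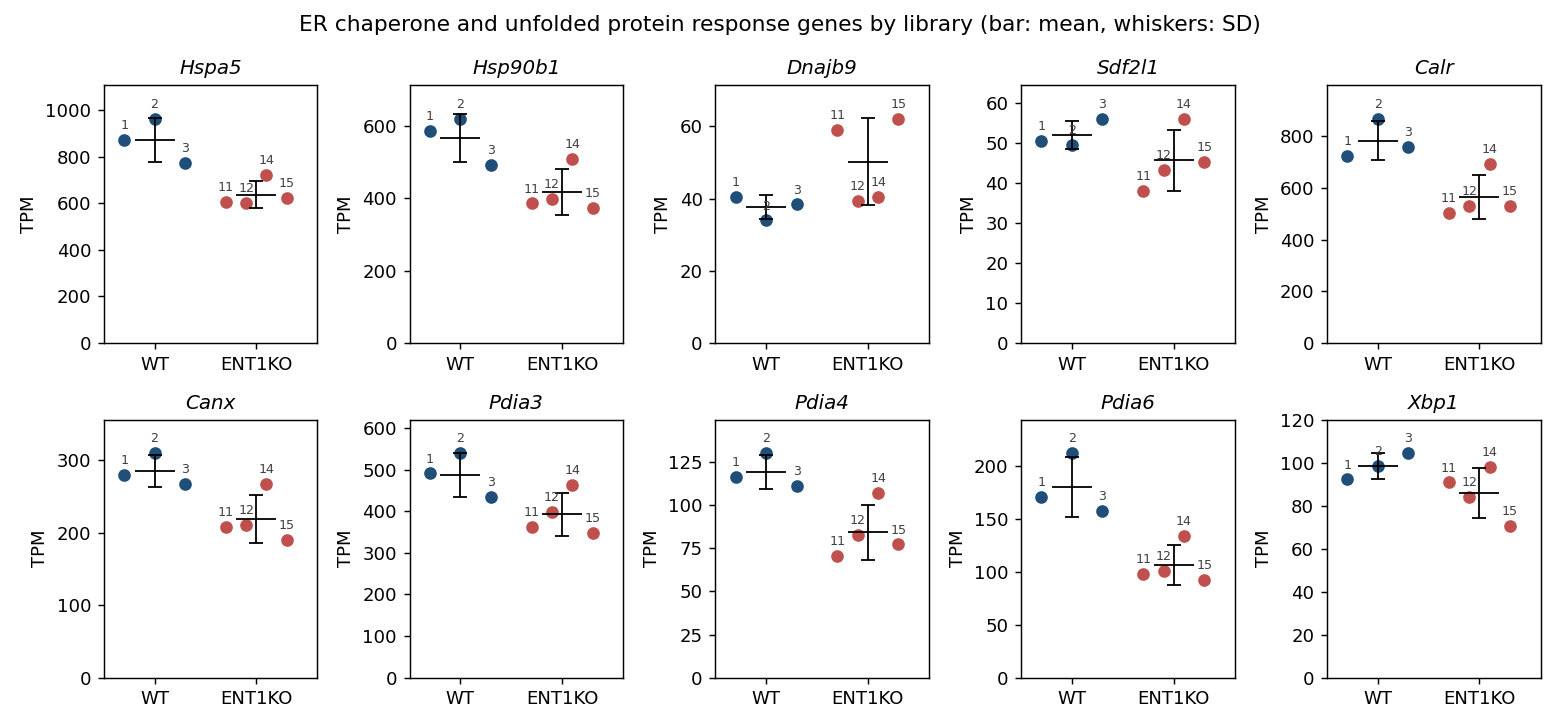
TPM of each of the 10 members in the 3 WT (blue) and 4 ENT1KO (red) libraries, numbered by replicate, with the group mean (bar) and SD (whiskers) and each axis starting at 0. The ENT1KO points lie below all WT points for Hspa5, Calr, Pdia4 and Pdia6, and ENT1KO replicate 14 is the highest ENT1KO point in each panel but that of Dnajb9.

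Normalized counts of the members ranged from 574 (Sdf2l1) to 37710 (Hspa5) per library. Counting error was not computed. Which members passed depended on the scale. The median of all genes was 0.15 lower on log2(normalized count + 1) than on TPM. On the normalized counts 8 of 10 fell, with Pdia3 at -0.48 (limma adjusted p = 0.0257) and Xbp1 at -0.42 (0.0230) added, with none higher, against 28% of all genes tested that fell and 21% that rose, and all-gene calls were 2894 higher and 3859 lower where TPM gave 3800 higher and 3182 lower. After quantile normalization of TPM the same 8 fell, with Pdia3 at -0.47 (limma adjusted p = 0.0232) and Xbp1 at -0.36 (0.0320), while the median of all genes was 0.17. In that fit 23.0% of all genes tested fell, and 4559 of 13798 rose. In the authors' deposited table these 8 members had a negative log2 fold change with an adjusted p under 0.05, from -1.02 for Pdia6 to -0.42 for Xbp1, against 25.8% of the genes that table gives an adjusted p. None was called higher there, against 16.5%. The authors' deposited table listed Sdf2l1 at -0.35 (adjusted p = 0.0915) and Dnajb9 at 0.31 (adjusted p = 0.259). The calls were also sensitive to single libraries. Without WT replicate 2 only Pdia6 passed, without ENT1KO replicate 11 only Pdia6 and Hspa5, and 3 members passed without ENT1KO replicate 12 or 15 or WT replicate 1. With ENT1KO replicate 14 or WT replicate 3 left out, 7 passed. Calls over all genes moved too, since 14.98% of the genes tested fell without WT replicate 2, 17.2% without WT replicate 1, 19.4% without WT replicate 3 and 20.7% to 23.1% without 1 ENT1KO library. Pdia6 passed in each of these 7 fits (limma adjusted p from 0.00235 to 0.0227), and the sign of all 10 differences was the same in each.

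The order of the levels was nearly fixed. Hspa5 was the most abundant in each of the 7 libraries, followed by Calr, Hsp90b1, Pdia3, Canx and Pdia6 in that order. Pdia4 and Xbp1 exchanged places 7 and 8 between libraries, and Dnajb9 and Sdf2l1 places 9 and 10. Within ENT1KO, the neighbours Pdia4 (84.5 ± 15.95 TPM, SD, n = 4) and Xbp1 (85.9 ± 11.8 TPM, SD, n = 4) were close and changed order between libraries. Hsp90b1 (417 ± 62.9 TPM) and Pdia3 (393 ± 51.3 TPM) had overlapping ranges there, but Hsp90b1 was the higher in each of the 7 libraries. As shares of the summed members, most genes held their place, for example Hspa5 with 24.6% ± 1.05 in ENT1KO (SD, n = 4) and 25.0% ± 0.64 in WT (SD, n = 3). The shares of 3 members did not overlap between the groups. How many of all genes tested would not overlap on this scale was not computed, so that count is only a description. Pdia6 made up 4.07% ± 0.203 in ENT1KO and 5.16% ± 0.332 in WT, Pdia3 15.1% ± 0.643 and 14.0% ± 0.386, and Dnajb9 1.97% ± 0.626 and 1.09% ± 0.176. Shares sum to 100%, so these values depend on one another.

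Member levels were then set beside those of matrix-secreting and T cell genes. The 7 libraries had the same order by summed members as by summed matrix genes, and summed macrophage and monocyte genes gave that order too. From the lowest up, this was ENT1KO replicate 15 (2412 TPM of members, 11.1 TPM of matrix genes), replicate 11 (2419.9 and 93.2), replicate 12 (2491 and 195), replicate 14 (3089.6 and 912), then WT replicate 3 (3194 and 4255), replicate 1 (3423 and 6396) and replicate 2 (3825 and 8020.3). Since the genotypes form separate groups in matrix level, no correlation is given over them, and with fewer than 6 libraries in each the relation cannot be tested within them. Inside the genotypes there are 6 pairs of ENT1KO and 3 pairs of WT libraries. The pairs share libraries and so are not independent of one another. The macrophage list orders each pair as the matrix list does, so the counts that follow hold for both. Hsp90b1, Canx, Pdia3 and Pdia6 were higher in the library richer in matrix genes in 9 of these 9 pairs, Pdia4 in 8, Calr in 7, Hspa5 and Xbp1 in 6, Sdf2l1 in 4 and Dnajb9 in 2, and the median of all genes tested was 4. At least 8 pairs were reached by 5 of 10 members and by 13.2% of all genes tested. ENT1KO replicate 14 was the highest ENT1KO library for 9 of 10 members, against 30.8% of all genes tested, and exceeded the mean of the other ENT1KO libraries by a factor of 1.19 for Hspa5 and 1.39 for Pdia4. It was also the highest ENT1KO library for all 17 tested matrix genes and all 14 macrophage genes. Their part in the members' levels was not tested.

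Over the same 9 pairs within genotypes, members were higher in the library richer in T cell genes in 1 (Hspa5) to 5 (Sdf2l1 and Dnajb9). Their median was 2.5, against 4 for all genes tested. ENT1KO replicate 14 had the least T cell RNA of its group (9342 TPM). In WT, T cell genes ran opposite to most members. WT replicate 2 had the least T cell RNA (2924 TPM) and the highest Hspa5, Hsp90b1, Calr, Canx, Pdia3, Pdia4 and Pdia6 (7 of 10, against 28.8% of all genes tested). WT replicate 3 had the most T cell RNA (7063 TPM) and the lowest summed members of the WT group (3194 TPM). Per 1000 TPM of the T cell genes, Hspa5 stood at 62.7 ± 10.6 TPM in ENT1KO (SD, n = 4) and 210.2 ± 111 TPM in WT (SD, n = 3). On this ratio 9 of 10 members had ranges in ENT1KO below those in WT, against 62.1% of all genes tested, and Dnajb9 overlapped (4.92 ± 1.26 and 8.64 ± 3.10 TPM). The summed members were 30.6% of WT per T cell level. That ratio falls for any gene that did not follow the T cell list. A second scale took log2(TPM + 1) less the mean log2(TPM + 1) of the T cell genes. On it 96.4% of all genes tested had a negative difference. In limma on this second scale 10 of 10 members were called lower, as were 66.5% of all genes tested. With the log2 level of the matrix list as a covariate, no member passed limma (0 of 10 also at an unadjusted p under 0.05), and 3 of the 13798 genes did. Hspa5 then had a log2 difference of -0.24 and Pdia6 -0.28, while Canx, Pdia3, Sdf2l1 and Xbp1 were above 0. The macrophage list as covariate gave the same counts. Both lists separate the genotypes, so such a covariate takes up much of the genotype difference.

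**Figure D3:**
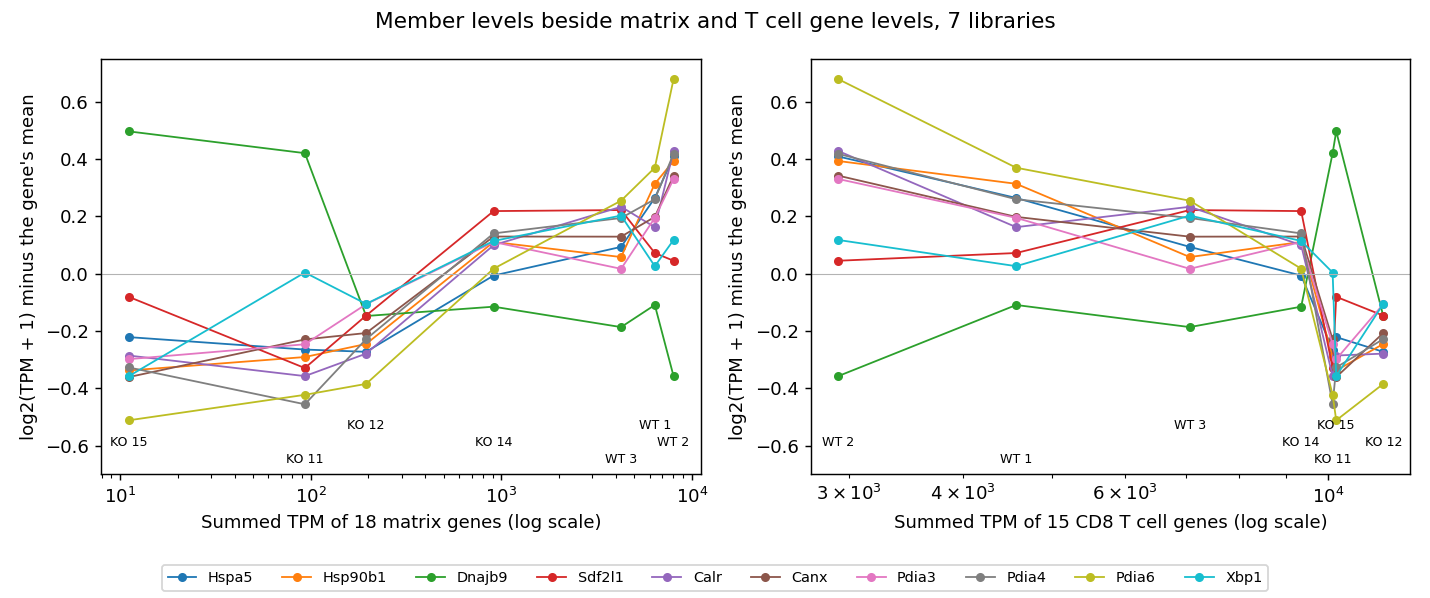
Centred log2(TPM + 1) of the 10 members in the 7 libraries against the summed TPM of matrix genes (left) and of CD8 T cell genes (right), both on log axes, 1 line per gene. Pdia6 rises most from the matrix-poor ENT1KO replicate 15 (11.1 TPM) to WT replicate 2 (8020.3 TPM), and Dnajb9 runs the opposite way.

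Genes of the B lineage, which includes professional secretory cells, did not move one way. Of 9 listed genes 3 were tested, of which 2 rose and 1 fell, and the summed level of all 9 was 145 ± 34.8 TPM in ENT1KO (SD, n = 4) and 109 ± 15.1 TPM in WT (SD, n = 3), with overlapping ranges. Ighm, the immunoglobulin mu heavy chain, made up most of it and rose (134.5 ± 34.4 against 74.7 ± 21.96 TPM, limma adjusted p = 0.0296), as did Cd79b, a B cell receptor subunit (5.87 ± 0.893 against 2.83 ± 0.75 TPM, 0.00910). The plasma cell genes Jchain and Mzb1 were near 0. Jchain, the joining chain of secreted antibody, averaged 0.0625 TPM in ENT1KO and 0.0933 TPM in WT, and Mzb1, a plasma cell co-chaperone of GRP94, 0.24 and 0.723 TPM. Sdc1 (syndecan-1), which plasma cells and also epithelial and stromal cells express, was lower in ENT1KO (4.17 ± 2.76 against 28.6 ± 7.94 TPM, limma adjusted p = 0.00518).

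In the rest of the ER folding and unfolded protein response machinery more genes fell than rose. Of all genes tested 23.1% fell and 27.5% rose, and these shares also stand beside the counts by function that follow. Of 52 listed genes, 51 matched 1 row (Ddit3 matched more than 1 and was left out) and 50 were tested, of which 21 fell and 4 rose, with a median log2 difference of -0.15. Without WT replicate 2 the number that fell was 13. On normalized counts 27 fell and 2 rose, against 28% and 21% of all genes tested. Among disulfide isomerases and oxidases 6 of 9 fell, with a median log2 difference of -1.005. P4hb, an isomerase that is also a subunit of collagen prolyl 4-hydroxylase, was at 217 ± 47.4 against 601 ± 121 TPM (limma adjusted p = 0.0014), Txndc5 at 40.9 ± 7.46 against 116 ± 23.1 TPM (0.00125) and Pdia5 at 0.83 ± 0.902 against 12.6 ± 3.70 TPM (0.00127). Prdx4, a peroxiredoxin of the lumen, had a log2 difference of -3.05 and Ero1a, the oxidase that recharges the isomerases, -1.005. All 3 prolyl isomerases fell, from -3.63 for Fkbp11 to -0.27 for Ppib, or cyclophilin B (428 ± 21.8 against 516 ± 33.3 TPM).

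Chaperones and co-chaperones outside the members had 5 falls and 1 rise among 10. Hyou1, a nucleotide exchange factor for BiP, was at 46.1 ± 6.04 against 70.5 ± 7.52 TPM (limma adjusted p = 0.00623), and the secreted stress factor Manf at 179 ± 19.6 against 245 ± 16.3 TPM (0.0122). Dnajc3, a BiP co-chaperone that restrains PERK, rose (51.5 ± 3.84 against 41.8 ± 3.10 TPM, limma adjusted p = 0.0393), but not on normalized counts (0.195). Of 6 genes of the calnexin cycle and cargo export 2 fell, among them the cargo receptor Lman1 (log2 difference -1.13).

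Of 4 listed sensors 1 fell and 1 rose, against 23.1% and 27.5% of all genes tested. Ern1, encoding IRE1, fell (4.69 ± 0.870 against 7.86 ± 0.670 TPM, limma adjusted p = 0.0149), Eif2ak3, encoding PERK, rose (37.0 ± 7.79 against 21.5 ± 5.73 TPM, 0.0192), and Atf6 was at 17.1 ± 2.21 and 17.7 ± 0.351 TPM (0.709). Atf6b was at 28.5 ± 1.46 and 29.4 ± 1.20 TPM (limma adjusted p = 0.709), but fell on normalized counts (log2 difference -0.36, limma adjusted p = 0.0356). Among 13 tested genes of ER-associated degradation 2 fell and 2 rose. Edem1, which marks misfolded glycoproteins for removal, rose (148 ± 12.6 against 102 ± 13.2 TPM, limma adjusted p = 0.00863), as did the lectin Os9 (121 ± 11.2 against 89.6 ± 8.81 TPM, 0.0143), the latter not on normalized counts (0.0513). Herpud1 and the segregase Vcp fell by 0.31 and 0.37 on the log2 scale. Of 5 tested PERK-branch targets 2 fell, Atf3 (52.7 ± 21.6 against 166 ± 75.7 TPM, limma adjusted p = 0.0125) and Chac1 (0.172 ± 0.1997 against 3.09 ± 1.48 TPM, 0.00216), and Atf4 did not pass (229.7 ± 18.4 against 259 ± 27.6 TPM, 0.240).

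Neighbouring lists gave the scale of these differences. Their counts stand beside 23.1% of all genes tested that fell and 27.5% that rose. All 10 genes of the collagen-modifying ER machinery were lower in ENT1KO (median log2 difference -2.04), with the collagen chaperone Serpinh1 at 9.96 ± 14.1 against 245 ± 101 TPM and the prolyl hydroxylase subunit P4ha1 at 40.5 ± 5.90 against 133 ± 39.96 TPM. Their sum in ENT1KO was 20.2% of WT. For the translocon and oligosaccharyltransferase, through which chains enter the lumen and are glycosylated, 8 of 18 fell and 1 rose (median -0.23), for a sum at 80.9% of WT. Ssr2 of the translocon-associated complex was at 109 ± 13.7 against 214 ± 34.6 TPM (limma adjusted p = 0.00191), and Tram1 rose (116 ± 6.27 against 84.8 ± 10.05 TPM, 0.0105), though not on normalized counts (0.0693). Cytosolic chaperones had 6 falls and 1 rise among 14, a median of -0.48 and a sum at 86.8% of WT. Hsp90ab1 was at 1241 ± 155 against 1770 ± 172 TPM (limma adjusted p = 0.0113) and Hspa8, the constitutive Hsp70, at 2811 ± 342 against 2901 ± 103 TPM (0.719). Whether the members differ from these lists was not tested.

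**Figure D4:**
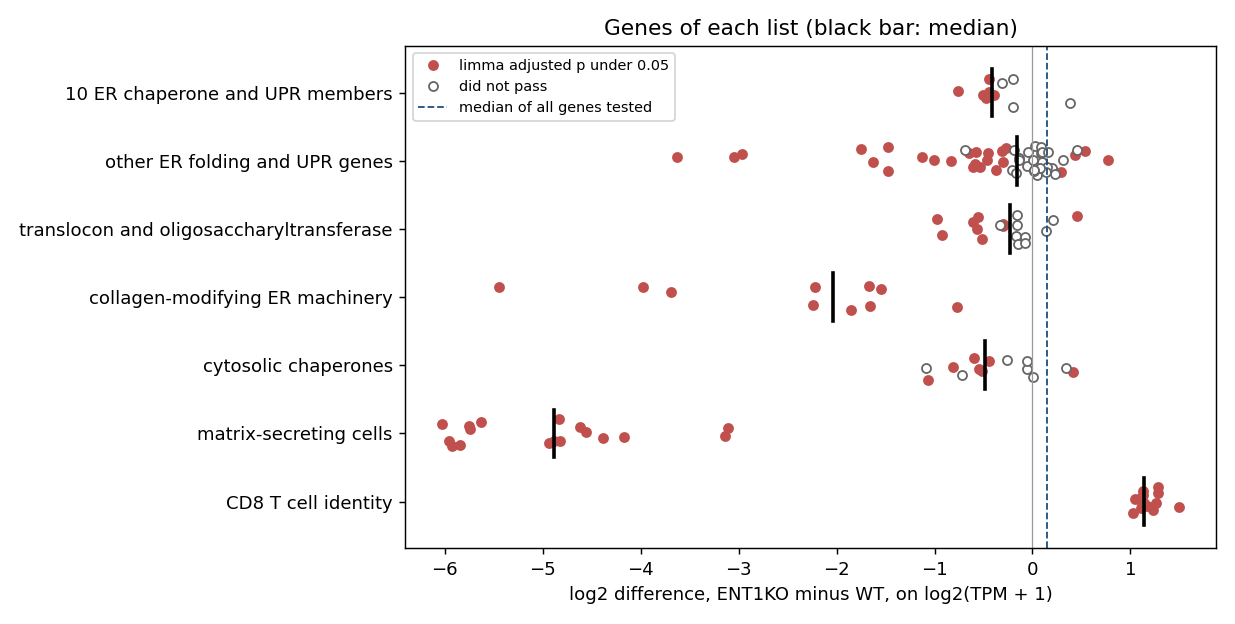
Log2 difference (ENT1KO minus WT, log2(TPM + 1) scale) of each tested gene in 7 lists, filled where the limma adjusted p was under 0.05, with the list median as a black bar and the median of all 13798 genes tested (0.15) as a dashed line. The members lie between -0.76 (Pdia6) and 0.38, inside the span of the other ER folding genes. All 10 collagen-modifying genes lie lower, but the nearest, Colgalt1 at -0.77, is about level with Pdia6.

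The ERSE also served to describe genes that were not chosen for their function. The 39 windows with an exact match belonged to 37 genes, of which 34 matched 1 row and 16 were tested. Of these, 5 are the members whose elements are printed above, which were shown because they fell, and nothing is read from them here. The 11 other tested genes had a median log2 difference of 0.21, against 0.15 for all genes tested. Among them 2 fell and 2 rose, where 23.1% and 27.5% of all genes tested did. Those that fell were the secreted ER protein Creld2 (37.0 ± 7.74 against 53.7 ± 7.79 TPM, limma adjusted p = 0.0283) and the zinc finger gene Zfp57 (log2 difference -2.04, 0.0022). Those that rose were Dnajc3 and Pan2, a deadenylase subunit (18.8 against 11.2 TPM, 0.00607). Syvn1, the ubiquitin ligase of ER-associated degradation, and Ero1b were at log2 differences of 0.02 and 0.14 (limma adjusted p = 0.911 and 0.37).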

How the data were processed

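Gene expression was measured by RNA-seq in 7 libraries (4 ENT1KO, 3 WT; poly(A) selection from 75 ng RNA according to the labels' protocols). The authors deposited a table of TPM, called stranded in its name, and a table of their comparison. That table's sample columns are a signal, gene counts divided by the authors by 1 size factor per sample (100% of values whole multiples of the smallest, tolerance 0.01), but the unit check did not accept the step in 2 columns, so no count test was run. The deposited table also gives log2 fold changes, p-values and the authors' test statistic, a score. Tools listed by the authors in the submitters' processing notes, with no role given, are DESeq2 1.30.1, RSEM, STAR 2.7.1a and Trimmomatic (0.35 and 0.38), and the build is GRCm39.

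The 13798 genes reaching 1 TPM in 3 or more samples entered limma-trend and robust empirical Bayes on log2(TPM + 1) (limma 3.58.1, R 4.3.3), with genotype as the only term. The scripts were tested on simulated data. Alternatives were quantile normalization, log2(normalized count + 1), pseudocounts of 0.1 and 5, other filters, array weights, matrix or macrophage level as a covariate, scaling to the T cell list, and leaving out each library. Promoter windows were RefSeq's on GRCm38.p6, and gene positions are the deposited ones on GRCm39. Figures used matplotlib 3.10.9.

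The members and lists were chosen with earlier results of these data known. Genes outside the members were named by a rule: in each list the 2 with the smallest p, the 2 most abundant and any called against most of its list. Not all of these are printed for lists of other cell types, and the other list and ERSE genes named were chosen after their values were seen.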

Additional observations from a re-analysis of the deposited data

Results flagged for a closer look

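The 4 ENT1KO libraries were checked for 1 value far from the rest (Dixon's ratio, the gap to the nearest library over the whole range, past its 95% limit for 4 samples) in 23 quantities, each member and each summed list. Chance alone puts about 5% of groups past that limit. Calr had a ratio of 0.850, with ENT1KO replicate 14 at 691 TPM and the other 3 between 503 and 532 TPM. The summed members had a ratio of 0.883, with replicate 14 at 3089.6 TPM and the others between 2412 and 2491 TPM. The summed endothelial list had a ratio of 0.860, with the same library again the highest. Without replicate 14 the number of members that fell was 7, with Pdia3 added.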

How the results depend on the processing

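No paired analysis was possible because the genotypes share no replicate number. The number of members that fell, 6 on TPM, ranged from 1 to 7 with 1 library left out, was 0 with the macrophage or matrix list as covariate and 10 relative to the T cell list (66.5% of all genes tested fell there), where limma p-values are too small because all genes share that list's spread. The number that rose was 0 in each of the 17 alternatives. Of the other ER folding and unfolded protein response genes, 21 fell and 4 rose. With 1 library left out 13 to 19 fell and 2 to 3 rose, with either covariate 0 fell and 0 rose, relative to the T cell list 48 fell and 0 rose, and on normalized counts or after quantile normalization 2 rose. The summed members' log2 difference of -0.42 ranged from -0.51 to -0.35 with 1 library left out, where p cannot fall below 0.0667 or 0.1, and was -1.60 relative to the T cell list and -0.61 on normalized counts (exact permutation p = 0.0286 in both). Signs reversed only in these fits. With the macrophage covariate Dnajb9 was at -0.23, Sdf2l1 at 0.0015, Canx at 0.0463, Pdia3 at 0.0722 and Xbp1 at 0.20, with the matrix covariate at -0.24, 0.0238, 0.0411, 0.0787 and 0.18, and relative to the T cell list Dnajb9 was at -0.80. The cause was not tested. Keeping every gene above 0 in 1 sample (26819 genes, 14.3% of which fell) left 4 members called, with Hsp90b1 and Canx lost (limma adjusted p = 0.0519 and 0.0652).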

Other observations

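The 6 genes named here, outside all lists, had the profile over the 7 libraries nearest to the mean profile of the 10 members, by the root mean square distance of centred log2(TPM + 1). They were Wdr61, a subunit of the PAF1 and SKI complexes (distance 0.0364), Rab18, a small GTPase of ER and lipid droplets (0.0511), Nit2, an amidase (0.0511), Snd1, a Tudor-domain nuclease (0.0519), Mtch2, an outer mitochondrial membrane protein (0.0525), and Tor3a, a torsin of the ER lumen (0.0533). The members' own distances ran from 0.0589 for Canx to 0.471 for Dnajb9. Snd1 was at 60.5 TPM in ENT1KO and 76.6 TPM in WT, and Tor3a at 20.9 TPM in ENT1KO and 25.3 TPM in WT. Genes chosen for likeness to a profile that is lower in ENT1KO are lower there by that choice, so no test is read from them. These likenesses are descriptions over 7 libraries that form 2 groups.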
